A study of Mus musculus with 6 samples.

Results

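The mitochondrial ribosomal protein genes encode the protein subunits of the ribosome that works inside mitochondria, together with a few proteins named with them. They were taken as every row whose gene symbol begins with Mrpl or Mrps followed by a digit, which gave 77 of the 10995 rows of the count table, 48 named Mrpl and 29 named Mrps. By the place of the protein in the mammalian mitochondrial ribosome, 50 encode large-subunit proteins and 26 small-subunit proteins. Mrps30 and Mrps18a belong to the large subunit in spite of their symbols. The remaining gene, Mrps36, kept a ribosomal name although its product is now known as a component of the oxoglutarate dehydrogenase complex. Mrpl53 was not analysed here.

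Expression was measured by RNA sequencing in mammary tumor cells of FVB/NJ mice carrying the MMTV-PyVT transgene, which drives the polyoma virus middle T oncogene from a mammary tumor virus promoter. The knockout group (KO) held 3 libraries with the genotype Nr4a1-/-, and the wild type group (WT) held 3 libraries with the genotype wild type. All 6 carried the same transgene on the same strain, and the design text calls the mice age matched without giving the age. Separate animals behind the 3 libraries of a group are not stated, so the p-values speak only of library-to-library spread, part or all of which may be technical. Nr4a1 encodes an orphan nuclear receptor, and the comparison asks which transcripts differ between tumor cells with and without it.

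The mitochondrial ribosome makes the small set of respiratory chain proteins that mitochondrial DNA encodes. Its ribosomal RNAs are transcribed in the organelle, whereas its proteins are encoded by nuclear genes scattered over many chromosomes, translated in the cytosol and imported. Many of these proteins have a counterpart in the bacterial ribosome, and others were added in the lineage that led to mammals.

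Before the results, 2 features of the libraries need stating. Nr4a1 itself was not lower with the knockout label: it stood at 32.8 CPM ± 6.70 in the KO libraries and 23.3 CPM ± 9.69 in the WT libraries (SD, n = 3 each), where CPM is the read count scaled to the TMM-adjusted library size. Its log2 fold change, KO over WT, was 0.49 (SE 0.32, edgeR quasi-likelihood adjusted p = 0.594), and 0.88 without WT replicate 1. The labels do not name the deleted exons, and whole-gene counts cannot show whether they were read, so every direction given here is between libraries as labelled. WT replicate 1 also stood apart: on the first principal component, which carried 60.1% of the variance of log2 CPM, it lay at 51.3 and the other 5 libraries between -28.8 and 2.22. Total counts were between 19569173 and 24188875 in the KO libraries and between 21221467 and 21637113 in the WT libraries, and the 77 genes took 0.228% to 0.246% of the counts of a library.

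Levels of cell type markers were as follows, and several of their ranges overlapped between the groups. The 8 listed epithelial markers had a summed level of 3287 to 4291 CPM in KO libraries and 4805 to 5326 CPM in WT libraries, with all 8 below 0 in log2 fold change. The 7 of 8 fibroblast markers listed summed to 4852 to 8879 CPM in KO libraries and 2256 to 5476 CPM in WT libraries. The 8 macrophage markers summed to 719 to 1106 CPM in KO libraries and 392 to 705 CPM in WT libraries, and 7 of 8 pericyte and smooth muscle markers summed to 850 to 1964 CPM in KO libraries and 250 to 1047 CPM in WT libraries. Eng, the 1 endothelial marker of 8 in the table, lay at 31.6 to 99.9 CPM in KO libraries and 12.2 to 42.6 CPM in WT libraries, and Fabp4, the 1 adipocyte marker of 6, at 26.6 to 78.1 CPM in KO libraries and 2.45 to 4.27 CPM in WT libraries. None of the 8 T cell and 4 B cell markers was in the table. Of the markers listed, edgeR's quasi-likelihood test called 0, against 0% of all genes. DESeq2 called 1 epithelial marker, 2 pericyte and smooth muscle markers and Fabp4, where it called 0.937% of all genes. The part of these cells in the levels of the mitochondrial ribosomal protein genes was not tested, and fewer cells of a type cannot be told apart from less RNA per cell in such bulk libraries.

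The 77 genes lie on 17 chromosomes, with 11 on chromosome 11 and 8 on chromosome 17. Their upstream sequences were read from a RefSeq promoter table of GRCm38.p6, which holds 250 bases before and 50 after a gene's start and matched 68 of the 77. Motifs were sought in these windows on both strands, and a gene was counted when any of its windows held a match. The core CCGGAAG is bound by ETS factors such as GABP, a regulator known for nuclear-encoded mitochondrial genes. It occurred in 25 of 68 genes (36.8%), against 21.4% of the 8506 listed genes with a window. TGCGCA, the core repeat within the site of the mitochondrial regulator NRF1, occurred in 21 (30.9%), against 16.7%. A site of the factor YY1, given here by name alone, occurred in 5 (7.35%), against 2.67%. GGGCGG, the GC box, occurred in 34 of 68, against 72.1% of the listed genes with a window, and the E-box CACGTG in 5 (7.35%), against 12.2%. None of these motifs contains another of them. A match describes the letters and is not a binding site.

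4 of these upstream stretches are printed to show what the motifs look like in place, from genes that recur in the results. In capitals are matches to CCGGAAG and TGCGCA, and all 4 are written 5′ to 3′ along the gene's own strand. They come from chr9:98601680-98601799 (minus strand), chr17:46110866-46110985 (plus), chr11:120484493-120484612 (plus) and chr17:26123380-26123499 (plus) of GRCm38.
Mrps22: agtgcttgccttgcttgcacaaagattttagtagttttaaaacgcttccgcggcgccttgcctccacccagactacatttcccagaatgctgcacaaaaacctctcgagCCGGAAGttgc
Mrps18a: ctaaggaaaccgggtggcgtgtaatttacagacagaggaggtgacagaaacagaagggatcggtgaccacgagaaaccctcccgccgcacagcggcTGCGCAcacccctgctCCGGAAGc
Mrpl12: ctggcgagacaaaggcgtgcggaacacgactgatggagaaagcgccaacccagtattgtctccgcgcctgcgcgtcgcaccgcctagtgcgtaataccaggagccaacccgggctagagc
Mrpl28: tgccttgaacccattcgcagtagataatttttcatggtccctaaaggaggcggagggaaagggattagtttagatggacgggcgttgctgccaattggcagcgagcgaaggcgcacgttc
The Mrps22 stretch holds the ETS core and the Mrps18a stretch both motifs, whereas neither motif is in the stretches of Mrpl12 and Mrpl28.

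Another shared feature was a divergent start. For 33 of the 77 genes (42.9%), a protein-coding gene on the other strand begins within 1000 bases of the start in the GENCODE annotation, against 1752 of 10512 listed protein-coding genes (16.7%). One such pair joins both kinds of member, with Mrps11 opposite Mrpl46. Other partners were Psma2 of the proteasome opposite Mrpl32, the condensin subunit gene Ncapd2 opposite Mrpl51, and Sars2, which encodes the mitochondrial seryl-tRNA synthetase, opposite Mrps12. Both genes of 25 such pairs were in the table, and their log2 fold changes had the same sign in 16 (64%), against 412 of 660 other divergent pairs (62.4%). Mrps12 and Sars2, whose starts are 172 bases apart, had -0.21 and -0.38, and -0.15 and -0.22 without WT replicate 1.

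Between the labelled groups, no mitochondrial ribosomal protein gene passed the test across all genes. edgeR's quasi-likelihood test with Benjamini-Hochberg adjustment called 0 of the 77, against 0% of all 10995 genes, with a smallest adjusted p of 0.574 among the 77. limma-voom called 0 (background 0%, smallest adjusted p = 0.579), and DESeq2 called 0 where it called 0.937% of all genes (smallest adjusted p = 0.156, for Mrpl38). At an unadjusted p under 0.05, 2 members were higher (Mrps11 and Mrpl13), against 3.7% of all genes, and 1 was lower (Mrpl38), against 4.17%. All KO libraries lay above all WT libraries for 8 members, or 10.4%, against 8.39% of all genes, and below them for 3, or 3.90%, against 9.05%.

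The 95% interval of the fold change lay within 2-fold in both directions for 73 of the 77 (94.8%), against 84.1% of all genes, and within 1.5-fold for 71 (92.2%), against 66.0%. The median SE of a log2 fold change was 0.11 for the members and 0.13 for all genes. The ratio of the highest to the lowest of the 6 libraries had a median of 1.26 over the members and ran from 1.08 to 3.09, against a median of 1.35 over all genes. Of the members, 47 had a log2 fold change above 0 (61.0%), against 49.4% of all genes, and the median was 0.04, against 0.00 for all genes. Without WT replicate 1, 45 were above 0, against 50.9% of all genes, with a median of 0.03, and at an unadjusted p under 0.05 there were 0 higher (background 3.13%) and 1 lower (3.72%).

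**Figure D1:**
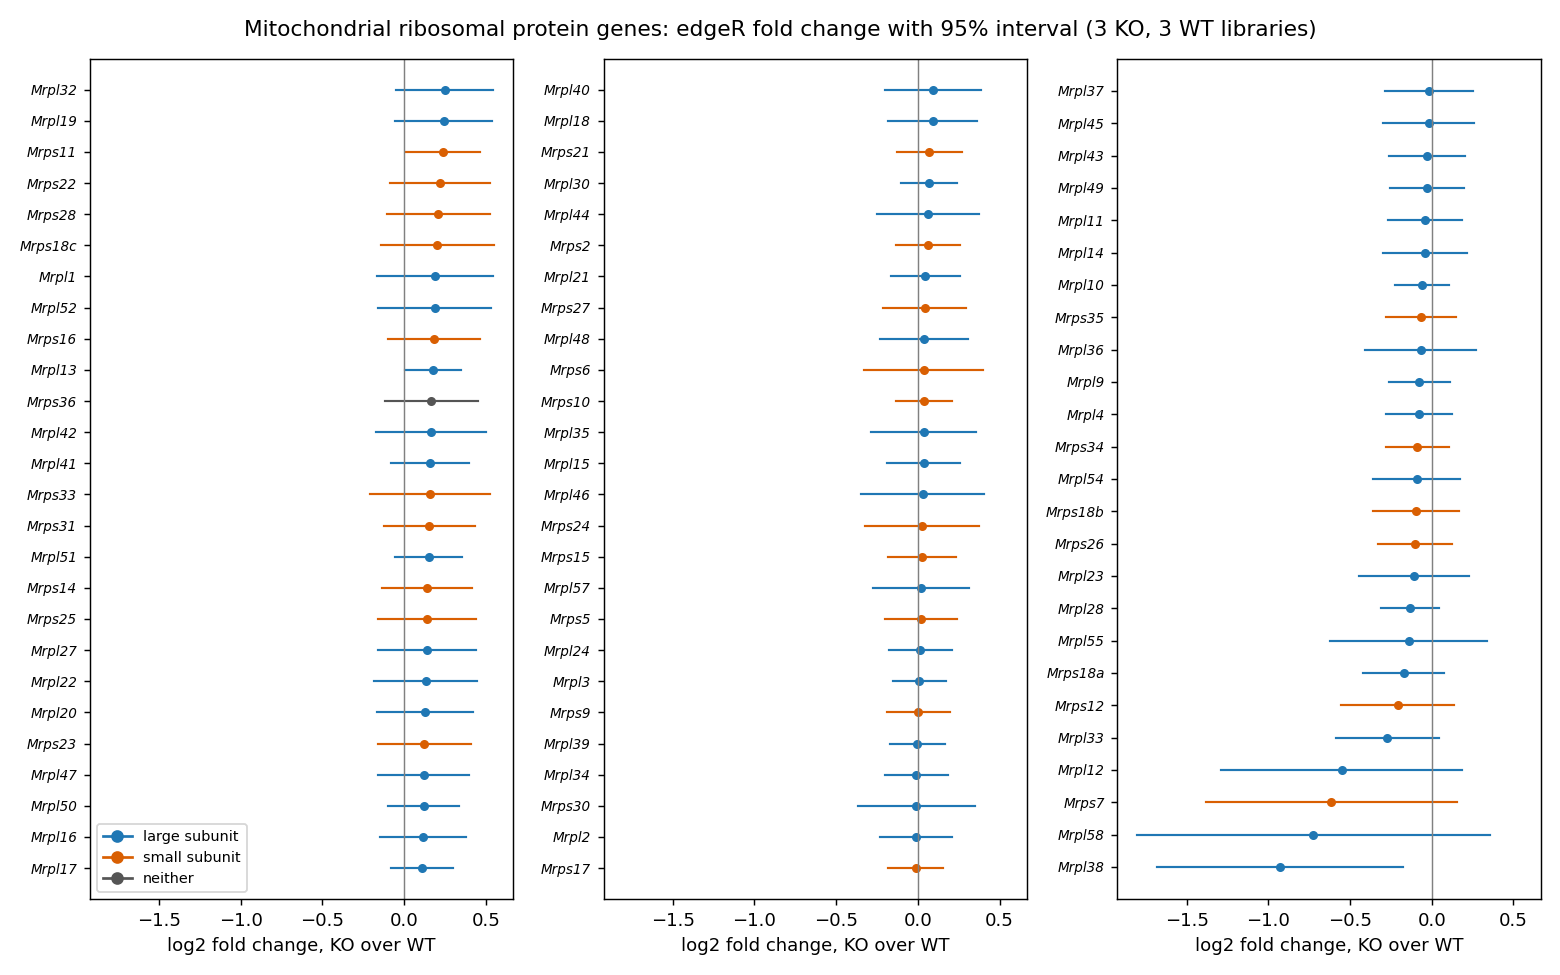
Log2 fold change (KO over WT, horizontal axis) of each of the 77 genes with its 95% interval from the edgeR fit to 3 KO and 3 WT libraries, ordered from highest to lowest and coloured by subunit. Most intervals are narrow and cross 0, and the 4 lowest genes, Mrpl12, Mrps7, Mrpl58 and Mrpl38, have wide intervals.

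By subunit, the counts were as follows. Of the 50 large-subunit genes, 27 were above 0 with a median log2 fold change of 0.02, and of the 26 small-subunit genes 19 were above 0 with a median of 0.04. Among large-subunit genes, 17 of 30 with a bacterial counterpart and 10 of 20 specific to mitochondria were above 0. Among small-subunit genes these counts were 13 of 16 and 6 of 10. The 77 genes summed to 2347 CPM ± 43.7 in KO libraries and 2413 CPM ± 135 in WT libraries (SD, n = 3 each). The large-subunit sum over the small-subunit sum was 2.16 ± 0.051 in KO libraries and 2.25 ± 0.058 in WT libraries (SD, n = 3 each), and the 2 groups overlapped. WT replicate 1 had both the highest sum of the 77 genes, 2551 CPM, and the highest ratio, 2.31.

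The 4 members with the lowest log2 fold changes were all much higher in WT replicate 1 than in any other library, and Mrpl38 was also the lowest member without it. Mrpl38 encodes a large-subunit protein specific to mitochondria, part of the central protuberance that faces the small subunit's head. It had 68.0, 63.3 and 69.9 CPM in KO replicates 1, 2 and 3, against 195, 92.1 and 95.8 CPM in WT replicates 1, 2 and 3. All KO libraries were below all WT libraries, and WT replicate 1 was far above the other WT libraries. Its log2 fold change was -0.93 (SE 0.31, edgeR quasi-likelihood adjusted p = 0.574), and without WT replicate 1 it was -0.49 (edgeR adjusted p = 0.418), with the KO libraries still below both remaining WT libraries.

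Mrps7 encodes the small-subunit head protein that in bacteria helps start the assembly of that head. It had 44.0, 44.4 and 38.1 CPM in KO libraries, against 98.9, 46.4 and 48.3 CPM in WT libraries. The groups did not overlap, but WT replicates 2 and 3 were close to the KO libraries. The log2 fold change was -0.61 (SE 0.31, edgeR quasi-likelihood adjusted p = 0.574) and -0.17 without WT replicate 1.

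Mrpl12 encodes the counterpart of the bacterial L7/L12 stalk protein, which recruits translation factors, and in human cells it also binds the mitochondrial RNA polymerase. Its levels were 38.8, 34.7 and 32.6 CPM in KO libraries, against 78.1, 40.04 and 37.3 CPM in WT libraries. Outside WT replicate 1 the groups overlapped. The log2 fold change was -0.55 (SE 0.30, edgeR quasi-likelihood adjusted p = 0.574) and -0.13 without that library.

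Mrpl58, also known as Ict1, encodes a peptidyl-tRNA hydrolase built into the large subunit that frees chains from stalled ribosomes. Its levels were 21.7, 22.3 and 24.7 CPM in KO libraries, against 66.7, 23.2 and 23.6 CPM in WT libraries. Among the other 5 libraries, the KO and WT values were intermingled. The log2 fold change was -0.73 (SE 0.44, edgeR quasi-likelihood adjusted p = 0.585) and -0.03 without it.

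**Figure D2:**
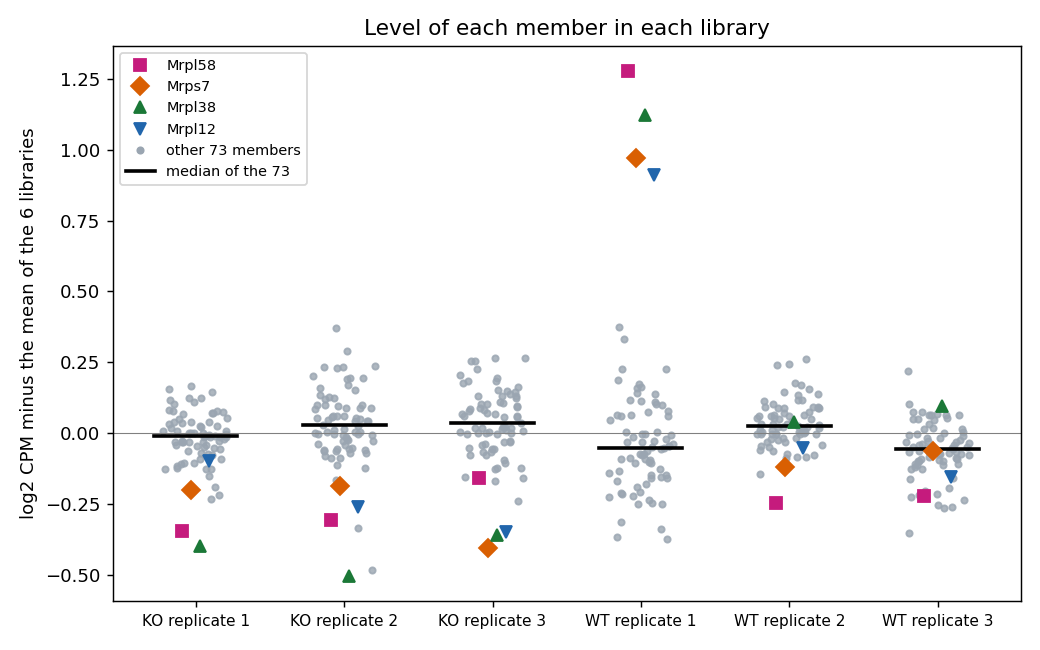
Log2 CPM of each gene minus its mean over the 6 libraries (vertical axis) in the 3 KO and 3 WT libraries, with 1 point per gene. The 73 grey genes scatter about 0 in every library, while Mrpl58, Mrps7, Mrpl38 and Mrpl12 stand well above them in WT replicate 1.

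These 4 genes lie on one stretch of distal chromosome 11 (GRCm38). Mrpl58 starts at 115403752, Mrps7 at 115603925, Mrpl38 at 116131817 and Mrpl12 at 120484613, and the stretch from the start of Mrpl58 to the end of Mrpl12 spans 5.09 Mb. WT replicate 1 held 2.09 to 2.88 times the median of the other 5 libraries for these 4, against 0.737 to 1.36 times for the other 73 members. The stretch holds 88 other listed genes, whose ratio in WT replicate 1 had a median of 2.23 (quartiles 1.83 and 2.57), and WT replicate 1 was the highest library for 81 of them (92.0%). On chromosome 11 before Mrpl58, 774 other genes had a median ratio of 0.930, with WT replicate 1 highest for 20.03%, and 9941 genes on other chromosomes had 1.005, with WT replicate 1 highest for 32.5%.

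The change in level came between the 7 members that lie earlier on the chromosome and these 4. Mrps24, Mrpl22, Mrpl55, Mrps23, Mrpl27, Mrpl10 and Mrpl45 had ratios of 0.790 to 1.01 in WT replicate 1. In steps of 5 Mb counted from the start of Mrpl58, the median ratio over all listed genes was 2.32 in the 5 Mb before it, 2.24 in the 5 Mb after it and 2.08 in the next step, and 0.781 to 0.979 in every earlier step. Mrps7 and the gene Gga3, whose start lies opposite its own, had nearly the same log2 fold change, -0.61 and -0.63. Among 209 windows of 5 Mb with at least 20 genes over the genome, WT replicate 1 had its 5 highest medians in 3 windows of chromosome 5, at 2.45, 2.01 and 1.77 with 0 members, and in 2 windows of chromosome 11, at 2.30 and 2.04, which hold these 4 members. What set this library's levels apart there was not tested.

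With WT replicate 1 left out, the stretch still tilted to one side. The median log2 fold change of its 88 other genes was -0.64 over all libraries and -0.23 without WT replicate 1. Without that library 80 of the 88 (90.9%) were below 0, against 49.1% of all genes. The same 80 were below 0 over all libraries too, where 4025 of 9941 genes on other chromosomes were below 0 in both fits. All KO libraries lay below both remaining WT libraries for 56 of the 88 (63.6%), against 12.3% of all genes. Mrpl38, at -0.49 without that library, was below the median of its neighbours, while Mrps7, Mrpl12 and Mrpl58, at -0.17, -0.13 and -0.03, were above it. Summed without these 4, the other 73 members came to 2180 CPM ± 47.9 in KO libraries and 2131 CPM ± 67.5 in WT libraries (SD, n = 3 each).

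**Figure D3:**
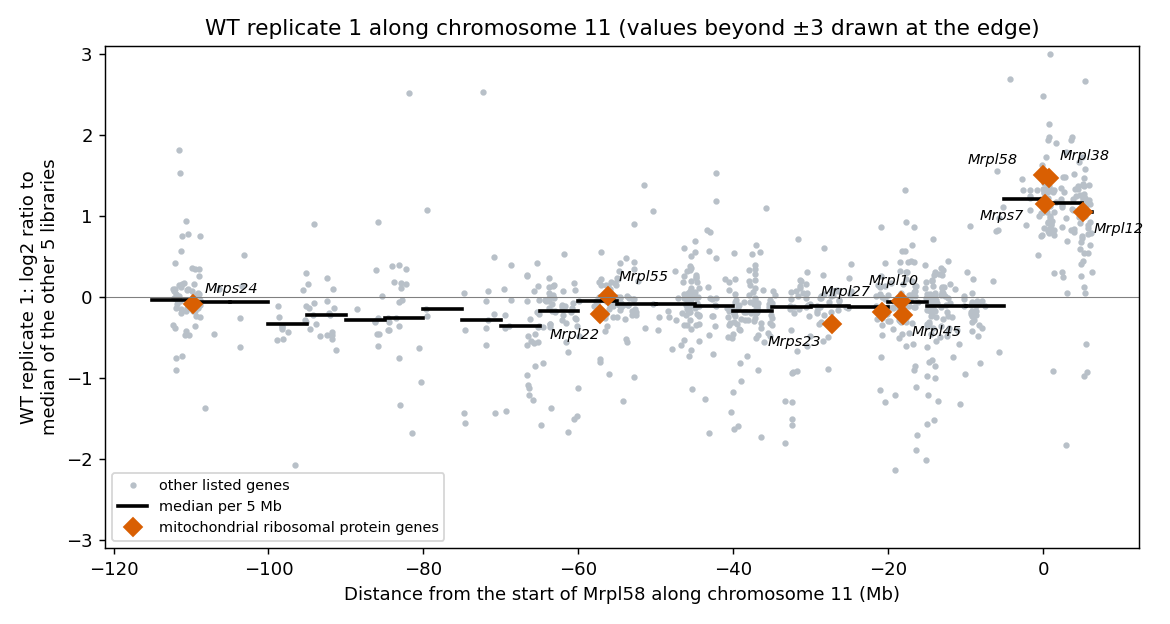
Log2 ratio of WT replicate 1 to the median of the other 5 libraries (vertical axis) for the listed genes of chromosome 11, by distance in Mb from the start of Mrpl58 (horizontal axis), with bars for the median in steps of 5 Mb. The 7 members to the left lie near 0 and the 4 members from Mrpl58 onwards lie above 1, as do most of their neighbours.

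Among the other large-subunit genes, those with the smallest unadjusted p are described next, although none passed. Mrpl13 encodes a core protein shared with bacteria. It had 47.4, 48.6 and 50.2 CPM in KO libraries, against 41.3, 45.1 and 42.8 CPM in WT libraries. The groups did not overlap, and the difference was small, with a log2 fold change of 0.18 (SE 0.070, edgeR quasi-likelihood adjusted p = 0.574).

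Mrpl32 encodes a protein whose trimming by the inner membrane m-AAA protease allows the ribosome to be assembled, as known from yeast. It had 23.1, 24.4 and 27.2 CPM in KO libraries, against 19.7, 23.8 and 19.3 CPM in WT libraries. Mrpl19 had 26.2, 22.5 and 28.3 CPM in KO libraries, against 21.9, 23.5 and 19.8 CPM in WT libraries. Both overlapped between groups, at 0.25 (SE 0.12) for Mrpl32 and 0.24 (SE 0.12) for Mrpl19 in log2 fold change, and Mrpl19 shares 41.3% of the 31-base words of its longest transcript with other genes, so that its reads may be divided with them. Mrpl51, a large-subunit protein specific to mitochondria, had 49.5, 51.1 and 56.2 CPM in KO libraries, against 44.9, 50.4 and 45.9 CPM in WT libraries, which overlapped.

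In the other direction, Mrpl33 had 30.999, 31.5 and 34.4 CPM in KO libraries, against 45.7, 37.7 and 33.6 CPM in WT libraries. WT replicate 1 was again the highest, WT replicate 3 lay among the KO libraries, and the log2 fold change of -0.27 (SE 0.13) was -0.14 without WT replicate 1. Mrpl28 had 37.8, 35.8 and 34.8 CPM in KO libraries, against 40.9, 38.4 and 39.6 CPM in WT libraries. These groups did not overlap, with a log2 fold change of -0.13 (SE 0.073, edgeR quasi-likelihood adjusted p = 0.574) and -0.11 without WT replicate 1. Mrps18a, a large-subunit gene despite its symbol, had 22.3, 24.6 and 27.2 CPM in KO libraries, against 28.9, 26.9 and 27.6 CPM in WT libraries, which overlapped.

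Other large-subunit genes were chosen by role. Mrpl3, Mrpl2 and Mrpl4, whose bacterial counterparts reach towards the catalytic centre or line the exit tunnel, differed little, with 0.01 (SE 0.067), -0.01 (SE 0.090) and -0.08 (SE 0.084) on the log2 scale. Mrpl10 and Mrpl11, which carry the stalk to which the Mrpl12 protein binds, had -0.06 (SE 0.068) and -0.04 (SE 0.092). Without WT replicate 1 the log2 fold changes of Mrpl12, Mrpl10 and Mrpl11 were -0.13, -0.10 and -0.06. No difference between these genes was tested. Mrpl45, which anchors the ribosome to the inner membrane, and Mrpl44, which carries a fold related to RNase III, had -0.02 (SE 0.11) and 0.06 (SE 0.13). Mrpl1, of the L1 stalk that releases spent tRNA, had 14.0, 15.6 and 14.3 CPM in KO libraries, against 10.6, 13.9 and 13.9 CPM in WT libraries. Its groups did not overlap but nearly met, at 13.96 CPM in KO replicate 1 and 13.94 CPM in WT replicate 2. WT replicate 1 was the lowest library, and the log2 fold change of 0.19 (SE 0.15) was 0.07 without it.

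**Figure D4:**
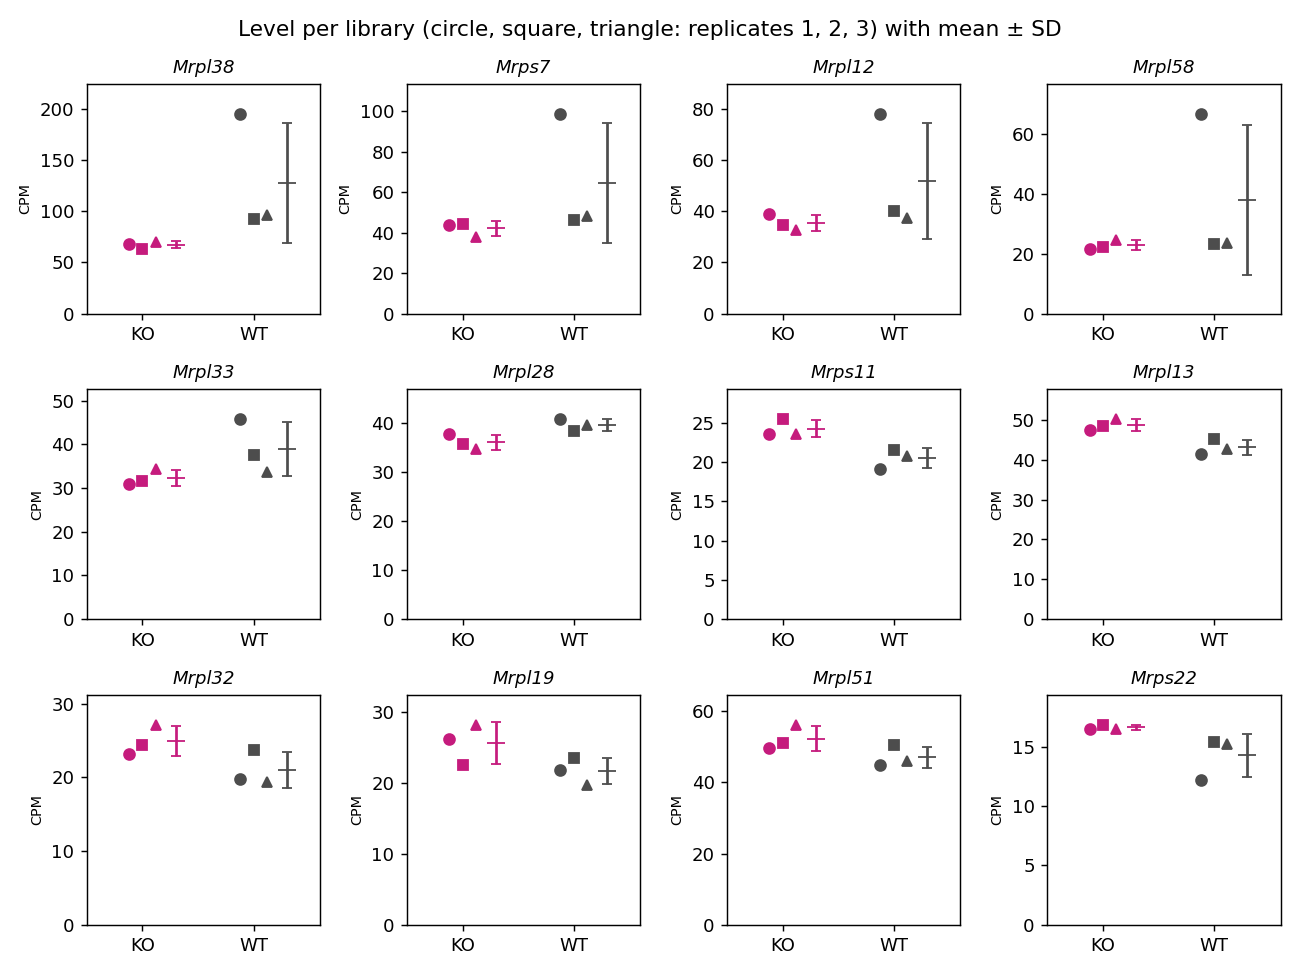
CPM (vertical axis, from 0) of 12 members in each KO library (left) and WT library (right), with the mean and SD of each group (n = 3). In the top row WT replicate 1, the circle, lies well above all other points, and in the lower rows the groups lie close together.

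In the small subunit, Mrps11 had the smallest unadjusted p. It encodes a platform protein by the exit of the messenger RNA channel. Its levels were 23.5, 25.4 and 23.6 CPM in KO libraries, against 19.1, 21.6 and 20.8 CPM in WT libraries. The groups did not overlap, and the log2 fold change was 0.24 (SE 0.093, edgeR quasi-likelihood adjusted p = 0.574). Without WT replicate 1 it was 0.19 (edgeR quasi-likelihood adjusted p = 0.760). Mrpl46, which starts opposite Mrps11 and overlaps it, had 0.03, and Mrps11 shares 14.1% of its 31-base words with other genes, of which Mrpl46 shares the most. Without a stated rule on strand, reads of the overlap cannot be assigned.

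Mrps22 encodes a small-subunit protein specific to mitochondria. It had 16.5, 16.9 and 16.5 CPM in KO libraries, against 12.2, 15.4 and 15.2 CPM in WT libraries. The KO libraries were nearly equal and above all WT libraries, of which WT replicate 1 was the lowest. The log2 fold change was 0.22 (SE 0.13, edgeR quasi-likelihood adjusted p = 0.581) and 0.12 without WT replicate 1. Mrps28 had 14.5, 14.9 and 17.4 CPM in KO libraries, against 14.4, 13.9 and 12.05 CPM in WT libraries, a log2 fold change of 0.21 (SE 0.13) with groups that did not overlap but nearly met.

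Mrps12 encodes the decoding-centre protein whose bacterial counterpart is altered in streptomycin resistance. Its levels were 42.3, 29.9 and 33.6 CPM in KO libraries, against 44.1, 39.1 and 39.0 CPM in WT libraries. KO replicate 1 lay among the WT libraries, and the log2 fold change was -0.21 (SE 0.14), with -0.36 without KO replicate 1 and -0.10 without KO replicate 2. Sars2, its divergent neighbour, had 17.4, 17.7 and 21.8 CPM in KO libraries, against 30.1, 21.0 and 23.1 CPM in WT libraries, and KO replicate 3 overlapped the WT range there.

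The remaining small-subunit genes singled out by role showed no separation of the groups. Log2 fold changes were 0.06 (SE 0.080) for Mrps2 and 0.02 (SE 0.091) for Mrps5, and Mrps16 had 0.18 (SE 0.12), and Mrps27, a pentatricopeptide repeat protein, 0.04 (SE 0.10). The 3 genes related to bacterial S18 differed in sign: Mrps18c had 0.20 (SE 0.14), Mrps18b -0.10 (SE 0.11) and Mrps18a, of the large subunit, -0.17 (SE 0.10). None of the 3 passed the edgeR test, and Mrps18b and Mrps18c share 64.3% and 38.1% of their 31-base words with other genes. Words were matched on both strands, so exons of an overlapping gene on the opposite strand count as shared too. Sequence shared with other genes was also found for Mrpl12 (18.5% of its words), Mrps7 (11.7%), Mrpl51 (14.9%), Mrps27 (18.2%), Mrps5 (15.3%), Mrpl10 (17.6%), Mrpl45 (12.7%), Mrpl47 (20.3%) and Mrpl14 (12.7%), and the levels of all of these are uncertain to that extent. Mrps36, which is no ribosomal subunit and shares 41.6%, had 17.6, 21.97 and 21.8 CPM in KO libraries, against 18.3, 18.3 and 18.1 CPM in WT libraries, which overlapped.

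Although the proteins join the ribosome in fixed numbers, their transcripts spanned a wide range of levels. Per kilobase of the longest annotated transcript and averaged over the 6 libraries, the members had a median of 14.6 CPM, from 3.06 for Mrpl48 to 105 for Mrps21. Of the 31-base words of Mrps21, 22.3% also occur in other genes. The next highest were Mrpl38 at 69.0, Mrpl14 at 64.1, Mrpl34 at 57.0 and Mrpl20 at 49.4 CPM per kilobase. The mean of Mrpl38 was raised by WT replicate 1, at 195 CPM. In KO libraries alone it averaged 47.5 CPM per kilobase, below Mrpl20 at 51.6 and Mrpl52 at 49.8. The next lowest were Mrpl47 at 3.83, Mrpl1 at 3.86, Mrps30 at 4.08 and Mrps35 at 4.17 CPM per kilobase. These orders rest on the length used: scaled by the median transcript length, 4 of the 5 highest and 3 of the 5 lowest remained, and Mrps35 and Mrpl48 left the lowest 5. Levels of Mrps21 differed by less than the spread within groups, at 52.4 CPM ± 3.45 in KO libraries and 49.9 CPM ± 2.60 in WT libraries (SD, n = 3 each). Mrps30 averaged 15.4 CPM ± 2.56 in KO libraries and 15.6 CPM ± 0.894 in WT libraries (SD, n = 3 each).

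The extremes were shared unequally among the libraries. WT replicate 3 was the lowest library for 23 of the 77 genes (29.9%), against 12.8% of all genes, and WT replicate 1 for 25 (32.5%), against 31.6%. KO replicate 2 was the highest library for 21 members (27.3%), against 20.6% of all genes, and KO replicate 3 for 18 (23.4%), against 15.8%. WT replicate 2 was the highest for 12 (15.6%), against 7.06%. The shares were below those of all genes for WT replicate 1, at 18 (23.4%) against 32.2%, and WT replicate 3, at 3 (3.90%) against 14.2%. The same held for KO replicate 1, at 5 (6.49%) against 10.2%. The counts above rest on these libraries: with WT replicate 3 left out 43 members had a log2 fold change above 0, and with WT replicate 2 left out 51.

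Among genes that work with the mitochondrial ribosome, edgeR's quasi-likelihood test called 0 in each list, against 0% of all genes. Of the 5 ribosomal subunits that carry other names, 4 were above 0 in log2 fold change, with a median of 0.05, among them Dap3 at 0.12 (SE 0.065). Of 24 listed assembly factors (29 chosen), 8 were above 0, with a median of -0.04. At an unadjusted p under 0.05, 1 of the 24 was higher, against 3.7% of all genes. It was Mrm3, an rRNA methyltransferase (edgeR quasi-likelihood unadjusted p = 0.043). Mrm3 had 7.97, 8.76 and 8.98 CPM in KO libraries, against 5.91, 7.52 and 6.02 CPM in WT libraries. Of 14 listed translation factors (16 chosen) 8 were above 0, with a median of 0.03, and of 20 genes for loading transfer RNAs 8 were above 0, with a median of -0.02. Of 13 listed genes for transcription and upkeep of mitochondrial DNA (17 chosen) 8 were above 0, with a median of 0.07, among them Tfam at 0.11 (SE 0.073). Mrm2 and Mtif3, on chromosome 5, had in WT replicate 1 their highest level, at 16.8 and 21.2 CPM, as the 4 members on distal chromosome 11 did.

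The nuclear regulators and the proteins encoded in mitochondrial DNA had medians below 0, where that of the members was above 0. Of 9 listed regulators (12 chosen), 1 was above 0, with a median log2 fold change of -0.13. Esrra, which encodes the estrogen-related receptor that activates many mitochondrial genes, had 62.5, 64.9 and 63.7 CPM in KO libraries, against 80.0, 71.7 and 77.4 CPM in WT libraries. The groups did not overlap, and the log2 fold change was -0.26 (SE 0.068, edgeR quasi-likelihood adjusted p = 0.574) and -0.23 without WT replicate 1. Gabpa, the DNA-binding part of GABP, had 59.8, 61.0 and 59.9 CPM in KO libraries, against 52.9, 54.2 and 57.0 CPM in WT libraries, and its partner Gabpb1 had 37.0, 35.9 and 39.6 CPM in KO libraries, against 41.1, 41.9 and 40.5 CPM in WT libraries. The 2 partners thus lay on opposite sides of 0, at 0.14 and -0.13, and neither passed.

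Of the 13 respiratory chain subunits encoded in mitochondrial DNA, 4 were above 0, with a median log2 fold change of -0.09, and 0.12 with 10 above 0 without WT replicate 1. edgeR called 0 of them, against 0% of all genes, whereas DESeq2 called 2, where it called 0.937% of all genes. Log2 fold changes of the 13 ran in both directions, from -3.55 for mt-Atp8 to 2.29 for mt-Nd3. Mean levels were 1.47 CPM in KO and 17.5 CPM in WT libraries for mt-Atp8, and 12.4 and 2.54 CPM for mt-Nd3. The groups overlapped for both genes. The summed level of the 13 was 20285 to 24786 CPM in KO libraries and 19671 to 29144 CPM in WT libraries, which overlapped. The ribosomal RNAs mt-Rnr1 and mt-Rnr2, the core of the small and the large subunit, had 0.01 (SE 0.17) and 0.10 (SE 0.16). Their summed level was 502 to 634 CPM in KO libraries and 425 to 613 CPM in WT libraries, far below that of the 13 subunits. How fully these libraries captured the ribosomal RNAs was not tested, so the 2 values are not a measure of their amount in the cells.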

How the data were processed

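The deposited values are raw read counts by gene symbol, in 1 table, without normalization by the authors. Per the submitters' processing notes it was made with CASAVA 1.8, HISAT2, featureCounts and the build GRCm38 (mm10); per the labels' protocols, a NEBNext Ultra kit and paired 150-base reads were used. Annotation release, strand setting and the handling of multi-mapping reads are not stated. Every row reaches a count of 133 or more in some library, and genes outside the table are not analysed here. The members had 179 to 4028 counts per library.

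Counts of all 10995 rows were fitted with edgeR 4.0.16 in R 4.3.3 (filterByExpr, TMM, robust quasi-likelihood F test, group as the only term, Benjamini-Hochberg adjustment at 0.05), with DESeq2 1.42.0 and limma-voom 3.58.1 as alternatives. The SE is the log2 fold change divided by the square root of F. The fit was also run on simulated counts, whose outcome is not reported here and is not used as support for any result. All pairs of libraries differed by more than counting noise (chi-square per degree of freedom 23.3 or more). Symbols were matched to GENCODE M21; all 77 members matched 1 protein-coding gene. Shared 31-base words were counted with Python 3.11.15 in each gene's longest transcript and matched on both strands of the other genes' transcripts. Of the members, 26 share at least 10% of theirs with other genes. Exons of genes on the opposite strand overlap at least 10% of the exon bases of 14 members.

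The members, the lists and the rule for naming genes were chosen with earlier results of these data known. The rule named the 6 members per direction with the smallest unadjusted p, the 5 highest and 5 lowest per kilobase, the 3 with the widest spread within a label and 22 landmark subunits, 38 genes in all, plus Nr4a1 and at most 4 genes per related list. The neighbours on chromosome 11, the divergent partners and the endothelial and adipocyte markers were named after their values were seen.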

Additional observations from a re-analysis of the deposited data

How the results depend on the processing

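No member was called under any alternative run (another scaling, filter, tool or threshold, the replicate block, each library left out), the smallest adjusted p of a named member being 0.156 in DESeq2. Few genes of any kind were called. At an adjusted p under 0.05, all genes together gave 103 calls with DESeq2, 2 without WT replicate 2 and 0 in every other run. The count of members above 0 ran from 43 to 51 and the median log2 fold change from 0.02 to 0.07 with each library left out, against 54 and 0.06 when scaled by library size alone or by the upper quartile. At an unadjusted p under 0.05, the 2 higher members became 0 to 2 and the 1 lower member 0 to 2 with each library left out. With the replicate block 0 were higher; same-numbered libraries deviated together with correlations of -0.11, 0.35 and -0.25 over genes, so the numbers are not taken to pair them. The 4 genes from Mrpl58 to Mrpl12 include Mrpl38, the 1 lower member. Leaving these 4 out, an alternative chosen after seeing the data, therefore left 0 lower by construction. Of the 38 named members, 28 kept their direction under every alternative. By library size alone Mrpl34, Mrps30, Mrpl2 and Mrpl45 turned to 0.014, 0.013, 0.012 and 0.0026, and by the upper quartile to 0.016, 0.015, 0.015 and 0.0050; these scalings moved the median of all genes, -0.0024, to 0.021 and 0.023, about as far as each of these genes. With each library left out, Mrpl34 ran from -0.044 to 0.034, Mrps30 from -0.14 to 0.097, Mrpl2 from -0.064 to 0.061, Mrpl45 from -0.10 to 0.052, Mrpl11 from -0.098 to 0.010, Mrpl14 from -0.11 to 0.038, Mrpl3 from -0.021 to 0.033, Mrpl44 from -0.035 to 0.18, Mrpl48 from -0.0087 to 0.086 and Mrps5 from -0.056 to 0.065. The cause of these ranges was not tested. Without WT replicate 2, KO replicate 1 or KO replicate 2, 1365, 513 and 388 of all genes had an unadjusted p under 0.05, against 866 with all libraries. The intervals given for the members, from the fit to all libraries, are ranges around each estimate and not limits of detection. On the log2 scale those of Mrpl38 (-1.68 to -0.17), Mrps11 (0.014 to 0.47) and Mrpl13 (0.0070 to 0.35) excluded 0. None of these genes was called by the test across all genes. With 3 libraries per group, a member that was not called may still differ, and the smallest detectable difference was not tested.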
